A study of Mus musculus with 6 samples.

Results

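The KIT receptor and 7 nuclear or RNA-binding factors listed with spermatogonial differentiation were followed by RNA in testes targeted for deletion of Eif5 in germ cells. Not all 8 genes are confined to that stage, as set out below. Eif5 encodes the translation initiation factor eIF5, whose protein level was not measured. The 8 genes, Kit, Sohlh1, Sohlh2, Dmrt1, Dmrtb1, Dmrtc2, Esrp1 and Nanos3, were taken by symbol from a table of 22219 genes, and all 8 were found and passed the filter on low values. RNA came from whole testes of day 10 mice, in 3 Control libraries and 3 libraries of the conditional knockout (cKO), in which floxed Eif5 alleles (Eif5fl/fl) were combined with Stra8-Cre. The Stra8 promoter drives the Cre in early male germ cells, so the somatic cells of these testes are not its target. The labels give no genotype for the controls, so loss of Eif5 cannot be told apart from effects of carrying Cre or floxed alleles. They also leave unsaid whether each library is a separate animal. The p-values therefore rest on the spread between libraries, and part or all of it may be technical.

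In the juvenile testis, undifferentiated spermatogonia respond to retinoic acid by switching on the receptor tyrosine kinase KIT, whose ligand, KIT ligand (encoded by Kitl), is made by Sertoli cells. SOHLH1 and SOHLH2 are basic helix-loop-helix proteins that promote this step and are needed for normal Kit expression. DMRT1 holds spermatogonia in mitosis and restrains meiotic entry, DMRTB1 (also called DMRT6) acts at the passage from mitosis to meiosis, and DMRTC2 (DMRT7) is a factor of meiotic spermatocytes. ESRP1 is an epithelial-type splicing regulator also found in germ cells, and NANOS3 is an RNA-binding protein of early germ cells and spermatogonia.

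The libraries held between 32555443 and 48409550 recovered reads, the whole numbers of reads behind the deposited values, and levels below are normalised read counts (reads divided by 1 size factor per library). Pairs of libraries of the same group correlated at 0.986 to 0.988 over log2 levels of the tested genes, and pairs across groups at 0.978 to 0.982. Eif5 was at 11234 ± 708 in Control and 9035 ± 515 in cKO (mean ± SD of 3 libraries each), a log2 fold change of -0.31 (limma adjusted p = 0.024). The sign turned to 0.29 when libraries were scaled to the summed level of 12 general germ cell genes. Under 2 more of the 16 alternatives tried the Eif5 call ended. Reads from the deleted part were not separated from the rest of the gene. The testis markers were present in every library: the germ cell gene Ddx4 stood at 3806 ± 774 in Control and 2786 ± 100.02 in cKO, the Sertoli gene Amh at 16693 ± 4383 and 28313 ± 3561, and the Leydig gene Hsd3b1 at 4856 ± 196 and 6354 ± 454 (SD, n = 3 per group).

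The 8 genes did not move as a block. Dmrtb1 and Dmrtc2 dropped to 34.96% and 37.6% of their Control means, Kit and Sohlh2 stood at 79.1% and 75.6%, Sohlh1 at 78.8%, Esrp1 at 82.8%, Dmrt1 at 97.3% and Nanos3 at 118%. By limma 4 of the 8 were lower at an adjusted p under 0.05 and 0 were higher, whereas 10.4% of the 17570 tested genes were lower and 9.63% higher. At an unadjusted p under 0.05 limma had 6 of the 8 lower and 0 higher, edgeR on the recovered reads called 4 lower and 0 higher, and DESeq2 5 lower and 0 higher. Scaled to the Sertoli cell list 7 were lower and 0 higher, and scaled to general germ cell genes 2 were lower and 3 higher. Of all 17570 tested genes 4582 were lower and 28 higher under the Sertoli scaling, and 241 lower and 11344 higher under the germ cell scaling. Those shares stand beside every list count under these scalings below. The matching shares for the unadjusted and DESeq2 counts are not given here. The Control and cKO libraries did not overlap for 6 of the 8, against 36.7% of all tested genes. The median log2 fold change was -0.34 over the 8 genes and 0.01 over all tested genes. These genes were chosen with earlier results of this table known, so the counts describe them and test nothing about them as a set. In whole testes, fewer cells of a type and less RNA per cell cannot be told apart.

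**Figure D1:**
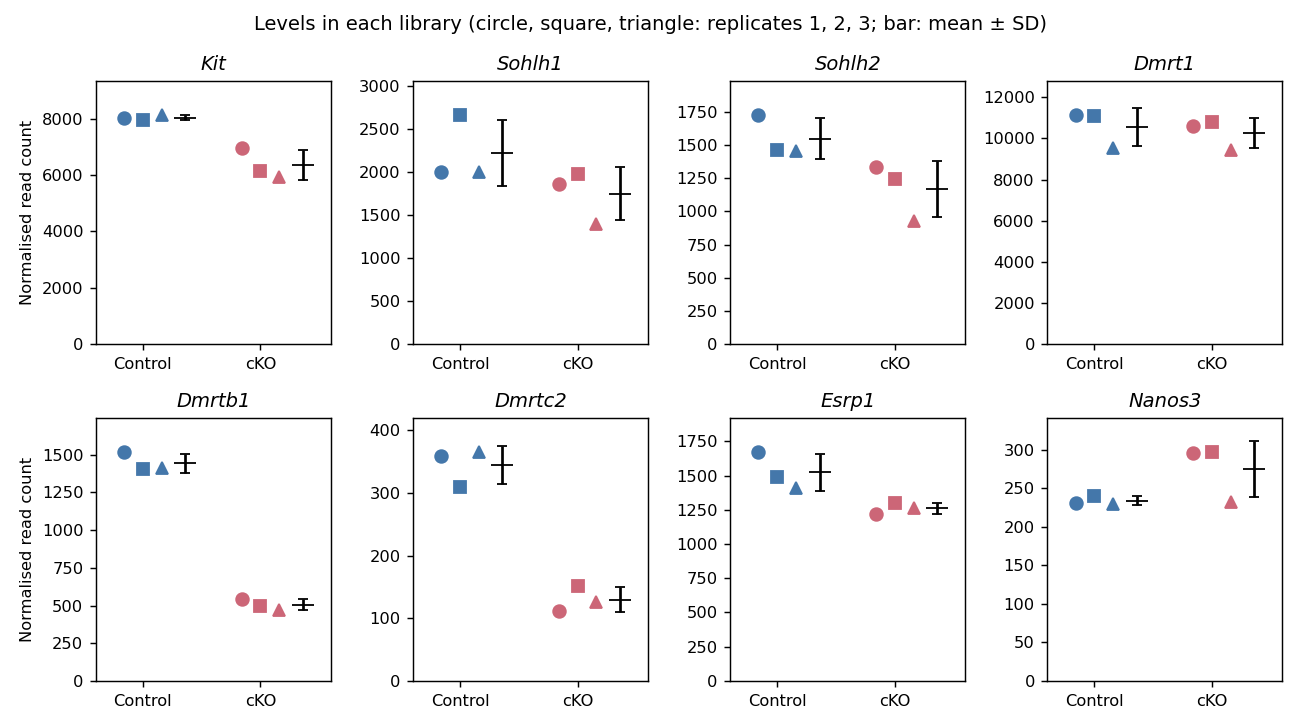
Normalised read count (vertical axes, from 0) of the 8 genes in each of 3 Control (blue) and 3 cKO (red) libraries, with the mean and SD of each group as a black bar. The groups are far apart for Dmrtb1 (1406 to 1518 against 470.1 to 546) and Dmrtc2, close for Kit and Sohlh2, and overlap for Dmrt1 and Nanos3.

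Kit, the receptor itself, was measured at 8025, 7940.0 and 8117 in the Control libraries and at 6947, 6144 and 5947 in cKO replicates 1 to 3. The 3 Control values lay within a narrow band, and every cKO library was below it. Kit fell from 8027 ± 88.7 to 6346 ± 529.7 (SD, n = 3 per group), a log2 fold change of -0.34 (95% interval -0.53 to -0.15, limma adjusted p = 0.0124), but its sign turned to 0.27 (adjusted p = 0.0858) when libraries were scaled to general germ cell genes. Kit was no longer called when cKO replicate 2 was left out (adjusted p = 0.0696), nor when cKO replicate 3 was (adjusted p = 0.0876). Of the tested genes 18.2% had a lower fold change, so the size of the Kit difference was not unusual in this comparison.

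KIT is also carried by Leydig cells and mast cells, whose RNA is part of a whole testis. The list of 10 Leydig genes had 7 members higher and 0 lower (0 higher under the Sertoli scaling), and its summed level ran from 26242 to 37026 in Control and from 40289 to 48379.8 in cKO. Of 8 mast cell genes 7 were matched and 6 tested, with 1 higher, the histidine decarboxylase gene Hdc (log2 fold change 0.45, limma adjusted p = 0.0112), and 0 were higher under the Sertoli scaling or without cKO replicate 1. The summed mast cell level was 797 to 959 in Control and 1014 to 1352 in cKO, most of it from Hdc, while the mast cell protease gene Cpa3 stood at only 48.4 and 74.6 on average. No matched mast cell gene was at 0 in all libraries. The share of Kit reads from these cells was not tested.

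Kitl, which encodes the ligand, moved the other way. Its levels were 15323, 12892.5 and 16102 in Control and 20579, 21277 and 24296 in cKO, with every cKO library above every Control library. Kitl rose from 14772 ± 1674 to 22051 ± 1976 (SD, n = 3 per group), a log2 fold change of 0.58 (95% interval 0.35 to 0.81, limma adjusted p = 0.000945). Scaled to the Sertoli cell list, whose summed level was itself 403278 to 569764 in Control and 611013 to 702380.0 in cKO, the change was 0.17 and was not called (adjusted p = 0.416). The gene Clu, at 222378 on average in Control, made up the largest part of that sum. The log2 ratio of Kit to Kitl within a library, which is free of any scaling between libraries, was -0.93, -0.70 and -0.99 in Control and -1.57, -1.79 and -2.03 in cKO. This ratio was lower in all 3 cKO libraries, by -0.92 on average (2-sided exact permutation p = 0.1, the smallest that 3 against 3 allows, adjusted p = 0.2 over 6 ratios of gene pairs).

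Most genes that carry the KIT signal inside the cell were not called, as was true of tested genes in general (14049 of 17570 not called). Of 47 genes on a list of the ligand, adaptors, kinases and negative regulators, 8 were higher, 2 were lower and 37 were not called, with a median log2 fold change of 0.08. Over all tested genes 9.63% were higher and 10.4% lower. After Kitl, the largest log2 fold changes among the genes called higher were in Spry2, a feedback inhibitor of receptor tyrosine kinase signalling (0.41, limma adjusted p = 0.0384), Sos1, an exchange factor that activates RAS (0.41, limma adjusted p = 0.00588), and Fyn, a SRC-family kinase gene (0.37, limma adjusted p = 0.00706). Mtor, the growth-control kinase gene, was among the falls (log2 fold change -0.40, limma adjusted p = 0.00345). These genes are used by nearly every cell type of the testis. The number called higher was 4 without cKO replicate 2, 5 without cKO replicate 3 and 4 with library totals. It was 0 under the Sertoli scaling and 44 (with 0 lower) when scaled to general germ cell genes. Of all 17570 tested genes 28 were higher under the Sertoli scaling and 11344 under the germ cell scaling.

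Sohlh1 and Sohlh2 encode partner proteins of the same kind and stood at different levels per length: over the exons of each gene in GENCODE M21, Control testes held 1721 ± 296 normalised read counts per kilobase of Sohlh1 and 654 ± 64.2 of Sohlh2 (SD, n = 3). Sohlh2 was at 1722, 1461 and 1457 in Control and at 1334, 1243 and 931 in cKO. All 3 cKO libraries were below all Control libraries, with cKO replicate 3 the lowest. Sohlh2 fell from 1546 ± 152 to 1169 ± 212 (SD, n = 3 per group; log2 fold change -0.42, 95% interval -0.67 to -0.16, limma adjusted p = 0.0222), although scaled to general germ cell genes its sign was positive (0.19, adjusted p = 0.219). Without Control replicate 1 or cKO replicate 3 the call ended (adjusted p = 0.0797 and 0.168), and without cKO replicate 3 the log2 fold change was -0.26.

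Sohlh1 gave nearly the same average change but did not pass. Its levels were 1995, 2659 and 1999.6 in Control and 1864, 1983 and 1396 in cKO. Control replicate 2 stood well above the other Control libraries, and the highest cKO library, replicate 2, lay just under the lowest Control. The log2 fold change was -0.35 (95% interval -0.61 to -0.08, unadjusted p = 0.0137, limma adjusted p = 0.062). It was called without Control replicate 1 (-0.42, adjusted p = 0.0402), without Control replicate 3 (-0.41, adjusted p = 0.0489), without cKO replicate 2 (-0.45, adjusted p = 0.0332) and with library totals (-0.43, adjusted p = 0.0241). The log2 ratio of Sohlh1 to Sohlh2 within a library averaged 0.51 ± 0.33 in Control libraries and 0.58 ± 0.095 in cKO libraries (SD, n = 3 each). The groups overlapped (exact permutation p = 0.8, adjusted p = 0.8 over 6 pairs). As 0.1 is the smallest p that 3 against 3 allows, this test does not show that the 2 genes changed alike.

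Promoter letters are shown for Kit, Sohlh1 and Sohlh2 because basic helix-loop-helix proteins such as SOHLH1 and SOHLH2 bind E-boxes, sites of the form CANNTG. The 250 bases before the transcription start are from RefSeq (GRCm38.p6), read 5′ to 3′ on the strand of the gene, with capitals marking CANNTG and the DMRT core ACANTGT, both of which read the same on either strand. The Kit window is chr5:75574737-75574986 on the plus strand, that of Sohlh1 chr2:25847249-25847498 on the minus strand and that of Sohlh2 chr3:55181794-55182043 on the plus strand.
Kit: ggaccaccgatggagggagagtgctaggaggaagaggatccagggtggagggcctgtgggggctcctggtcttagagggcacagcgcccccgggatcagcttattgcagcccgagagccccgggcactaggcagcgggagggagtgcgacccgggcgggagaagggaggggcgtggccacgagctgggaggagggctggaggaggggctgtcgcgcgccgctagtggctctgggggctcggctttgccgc
Sohlh1: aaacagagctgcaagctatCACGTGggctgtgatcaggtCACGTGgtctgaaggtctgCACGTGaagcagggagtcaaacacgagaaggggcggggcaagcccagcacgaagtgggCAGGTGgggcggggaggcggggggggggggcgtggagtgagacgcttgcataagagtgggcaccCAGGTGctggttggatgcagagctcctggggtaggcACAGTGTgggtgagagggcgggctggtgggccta
Sohlh2: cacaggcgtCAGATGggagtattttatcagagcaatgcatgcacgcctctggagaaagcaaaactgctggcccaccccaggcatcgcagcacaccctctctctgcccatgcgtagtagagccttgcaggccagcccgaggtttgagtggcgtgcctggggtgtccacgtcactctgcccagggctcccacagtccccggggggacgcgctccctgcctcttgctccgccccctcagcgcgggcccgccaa
The Sohlh1 window held 5 E-boxes, of which 3 had the letters CACGTG, at 231, 211 and 192 bases before the start. Over 32851 RefSeq promoter windows of the same length, 66.2% held CANNTG at least once and 12.2% held it 3 times or more, while 6.02% held CACGTG and 0.0609% held that palindrome 3 times or more. The Sohlh2 window held 1 E-box (CAGATG) and the Kit window 0. Every CACGTG is also a CANNTG, so these counts overlap. A match is a description of letters and not of a bound site.

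The DMRT genes separated most clearly. Dmrt1, the most abundant of the 8 per length (4075 ± 352 normalised read counts per kilobase in Control, SD, n = 3), was at 11122, 11072 and 9516 in Control and at 10626, 10786 and 9451 in cKO. The groups overlapped nearly completely. The log2 fold change was -0.04 (95% interval -0.24 to 0.17, limma adjusted p = 0.832), and its sign turned without Control replicate 1 or cKO replicate 3. Its call depended on the scaling: -0.45 when scaled to the Sertoli list (adjusted p = 0.0476) and 0.57 when scaled to general germ cell genes (adjusted p = 0.00173). DMRT1 is also made by Sertoli cells, and of the 18 Sertoli genes listed 7 were higher, 1 was lower and 10 were not called (16 higher when scaled to general germ cell genes, 3 when scaled to this list itself), with the abundant secreted protein gene Clu at 222378 in Control and 285767 in cKO on average (log2 fold change 0.39, limma adjusted p = 0.217). Scaled to general germ cell genes 11344 of all 17570 tested genes were higher. The share of Dmrt1 reads from Sertoli cells was not tested.

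Dmrtb1 was measured at 1518, 1406 and 1412 in Control and at 546, 499.5 and 470.1 in cKO. The lowest Control library exceeded the highest cKO library by a wide margin. Dmrtb1 fell from 1445 ± 63.0 to 505 ± 38.1 (SD, n = 3 per group), a log2 fold change of -1.51 (95% interval -1.74 to -1.29, limma adjusted p = 1.01e-08), and 151 of the 17570 tested genes, or 0.859%, had a lower value. Dmrtc2 was at 359, 310.3 and 365 in Control and at 111, 151 and 126 in cKO, again without overlap. It fell from 345 ± 30.0 to 129 ± 20.02 (SD, n = 3 per group), with a log2 fold change of -1.41 (95% interval -1.77 to -1.04, limma adjusted p = 1.06e-05). Both are among the 1.95% of tested genes that were called lower and had a log2 fold change of -1 or below. They stayed called and lower under all 16 alternatives tried.

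Within each library the log2 ratio of Dmrtb1 to Dmrt1 was -2.87, -2.98 and -2.75 in Control and -4.28, -4.43 and -4.32 in cKO. The ratio of Dmrtc2 to Dmrt1 was -4.95, -5.15 and -4.70 in Control and -6.55, -6.14 and -6.21 in cKO. Both ratios were lower in 3 of 3 cKO libraries, by -1.48 and -1.37, with an exact permutation p of 0.1 each (adjusted p = 0.2 over 6 pairs), the smallest this design allows. Dmrtb1 and Dmrt1 thus differed in response by more than the spread between libraries, without a p under 0.05 being within reach.

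The windows of Dmrtb1 and Dmrtc2 are given because these members had the largest falls and DMRT proteins bind the core searched here. Dmrtb1 has 2 RefSeq starts, and the window of the outer one is chr4:107684231-107684480 on the minus strand. That of Dmrtc2 is chr7:24869807-24870056 on the plus strand, in the same build and with the same capitals.
Dmrtb1: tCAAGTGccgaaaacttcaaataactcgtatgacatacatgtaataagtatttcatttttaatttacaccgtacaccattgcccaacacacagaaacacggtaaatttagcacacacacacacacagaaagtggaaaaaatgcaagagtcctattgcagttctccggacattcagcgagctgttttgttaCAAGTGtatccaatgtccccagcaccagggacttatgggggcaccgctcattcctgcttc
Dmrtc2: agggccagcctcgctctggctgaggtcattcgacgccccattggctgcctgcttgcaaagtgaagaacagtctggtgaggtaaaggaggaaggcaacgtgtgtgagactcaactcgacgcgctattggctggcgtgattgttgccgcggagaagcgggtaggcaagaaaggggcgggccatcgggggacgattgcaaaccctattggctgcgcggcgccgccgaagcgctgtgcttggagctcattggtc
The Dmrtb1 window held 2 E-boxes, both CAAGTG, and 0 copies of ACANTGT, and the Dmrtc2 window held neither. The window of the inner Dmrtb1 start held 3 E-boxes and 0 copies of ACANTGT. Among all windows 6.47% held ACANTGT. Of the 6 genes matched in the promoter table, Sohlh1 was the only one with that core, as ACAGTGT at 34 bases before its start. Dmrt1 and Esrp1 had no entry.

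Other DMRT genes were not called in either direction. Dmrta1, an abundant relative, was at 4228 ± 757 in Control testes and at 4029 ± 129 in those of cKO (SD, n = 3 each; log2 fold change -0.05, 95% interval -0.28 to 0.18, limma adjusted p = 0.783). Dmrt2, Dmrt3, Dmrta2 and Dmrtc1a had log2 fold changes of 0.15, -0.07, -0.44 and 0.06, with limma adjusted p-values of 0.442 or more. Dmrt2 and Dmrta2 were low, at 34.1 and 41.7 on average in Control, and Dmrtc1a has near-identical copies, so its value is uncertain. On the wider list of 19 relatives and partners, 3 were higher, 1 was lower and 15 were not called (median 0.06).

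Partners of the helix-loop-helix factors were measured as well. The E protein genes Tcf3 and Tcf12, whose products pair with tissue-specific factors of this kind, had log2 fold changes of -0.09 and -0.02 and were not called, and Tcf4 was higher (0.30, limma adjusted p = 0.0443). Of the ID genes, which encode inhibitors that bind E proteins without binding DNA, Id2 rose from 2218.5 ± 361 to 3200.5 ± 312 (SD, n = 3 per group; log2 fold change 0.54, limma adjusted p = 0.00196). Id3 also rose (0.54, limma adjusted p = 0.00396), while Id1 (0.28, adjusted p = 0.177) and the stem cell gene Id4 (0.38, limma adjusted p = 0.132) were not called. Under the Sertoli scaling 0 of the 19 were higher and 4 were lower, and scaled to general germ cell genes 13 were higher and 0 lower. Of all 17570 tested genes 4582 were lower under the Sertoli scaling and 11344 higher under the germ cell scaling.

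With the deposited scaling and all 6 libraries, Nanos3 was the only one of the 8 with a positive log2 fold change, and under the Sertoli scaling it was negative. Its levels were 231, 241 and 230.1 in Control and 296, 297 and 233 in cKO. cKO replicates 1 and 2 lay above all Control libraries, and cKO replicate 3 lay among them. The log2 fold change was 0.22 (95% interval -0.11 to 0.56, limma adjusted p = 0.35), and it was -0.18 under the Sertoli scaling. The relatives gave other values. Nanos1, a family member not restricted to germ cells, fell from 1259.9 ± 60.8 to 772 ± 88.1 (SD, n = 3 per group; log2 fold change -0.71, limma adjusted p = 0.000146). Nanos2, the stem cell member, stood at 36.5 ± 3.45 and 43.2 ± 21.5 on 28 to 54 reads per library, too few to detect a change of moderate size (log2 fold change 0.11, 95% interval -0.65 to 0.88, limma adjusted p = 0.863).

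Esrp1 was at 1672, 1489 and 1409 in Control and at 1219.7, 1301 and 1261 in cKO. All cKO libraries were below all Control libraries, by a small margin. The log2 fold change was -0.27 (95% interval -0.48 to -0.06, unadjusted p = 0.0146, limma adjusted p = 0.0644), and it was called by DESeq2 on the recovered reads (adjusted p = 0.0429), with library totals (adjusted p = 0.0311) and without Control replicate 3 (adjusted p = 0.0418). Esrp2, its paralogue, stood at 53.9 ± 5.66 and 56.3 ± 21.3 (SD, n = 3 per group), with a log2 fold change of -0.00092 (95% interval -0.65 to 0.65, limma adjusted p = 0.999). Epithelial genes were also measured, since epididymal cells can carry ESRP1. The list held 11 genes, but the epididymal genes Lcn8 and Lcn9 were not found by symbol or synonym. Of the 9 matched genes Epcam, which spermatogonia also express, was lower (log2 fold change -0.72), Pax2 was higher (0.47) and 7 were not called, with 3 lower and 0 higher under the Sertoli scaling and 0 lower and 4 higher when scaled to general germ cell genes, and the keratin genes Krt8 and Krt18 were at 73.6 and 88.2 on average in Control. Exons of Esrp1 overlap those of Gm26663 on the other strand over 127 bases. The strand setting of the counting is not given in the sources used here, so reads there cannot be told apart.

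**Figure D2:**
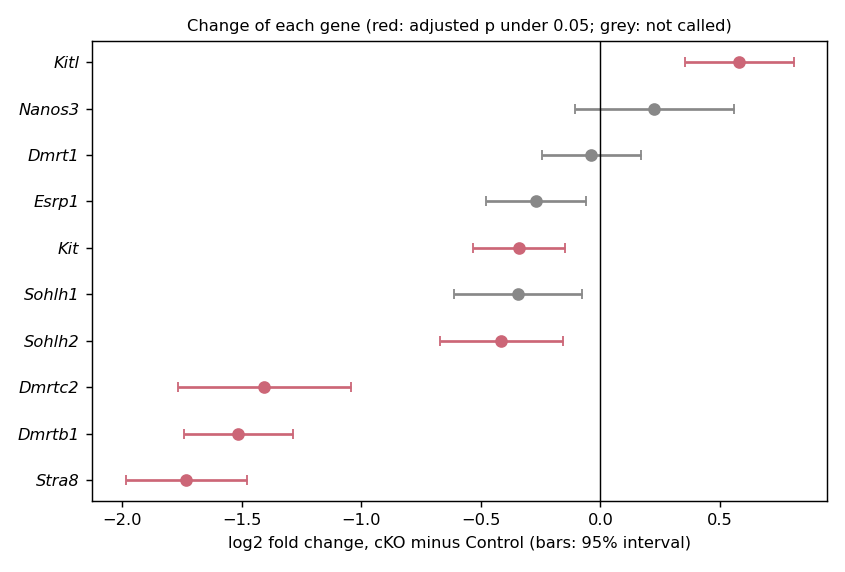
Log2 fold change of cKO against Control (horizontal axis) with its 95% interval for the 8 genes, for Kitl and for Stra8, where red marks an adjusted p under 0.05. Dmrtb1 and Dmrtc2 lie near Stra8 (-1.73), while Kit, Sohlh1, Sohlh2 and Esrp1 lie between -0.42 and -0.27, with positive signs instead when scaled to general germ cell genes.

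General germ cell genes also differed between the groups. The sum was taken over 12 genes listed for germ cells of all early stages, among them Ddx4, Dazl and Piwil2. It was 38415 to 47468 in Control and 26327 to 27988 in cKO, with 8 of the 12 lower and 0 higher (median log2 fold change -0.43). The 12 did not fall by the same amount. Their log2 fold changes ran from -0.94 (Tdrkh) to -0.05, the latter for a gene with 4 to 38 reads per library. Abundant genes weigh most in this sum. Dazl alone averaged 12733 in Control and 7216 in cKO, with a log2 fold change of -0.80. A difference relative to the sum therefore need not hold against each gene of the list. Measured within each library against this sum, Dmrtb1 and Dmrtc2 were still lower in all 3 cKO libraries, by -0.91 and -0.80 on the log2 scale. Kit was higher against it by 0.27, Esrp1 by 0.34, Dmrt1 by 0.57 and Nanos3 by 0.83, without overlap between the groups. Each of these 6 differences had an exact permutation p of 0.1 (adjusted p = 0.133 over 8 genes), the smallest possible. Sohlh1 and Sohlh2 differed by 0.26 and 0.19 with overlapping libraries (exact permutation p = 0.3 and 0.4, adjusted p = 0.343 and 0.4). Under this scaling the median of all tested genes moved to 0.61, so Kit, at 0.27, was below the median gene of the testis.

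**Figure D3:**
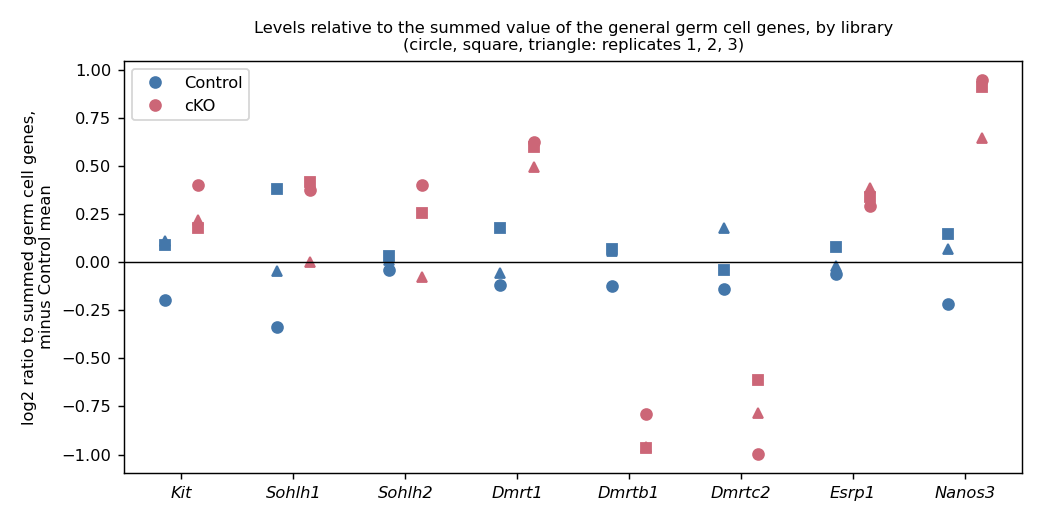
Log2 ratio of each of the 8 genes to the summed level of 12 general germ cell genes in the same library, minus the Control mean (vertical axis), for 3 Control (blue) and 3 cKO (red) libraries. Dmrtb1 and Dmrtc2 lie below 0 in every cKO library, and Dmrt1, Esrp1, Kit and Nanos3 lie above all Control libraries.

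In Control testes the order of levels per kilobase of exon was Dmrt1 (4075), Sohlh1 (1721), Kit (901), Dmrtb1 (694), Sohlh2 (654), Nanos3 (253), Esrp1 (242) and Dmrtc2 (213). Length here counts every annotated exon base of a gene once, 8911 bases for Kit and 1289 for Sohlh1. The order between genes depends on this choice, and other lengths were not tried. Dmrtb1 and Sohlh2 differed by less than the SD of Sohlh2 (64.2 per kilobase). Nanos3, Esrp1 and Dmrtc2, with SDs of 6.39, 21.4 and 18.5 per kilobase, formed a run in which each neighbour differed from the next by less than the sum of their SDs. In cKO the order was Dmrt1 (3966), Sohlh1 (1356), Kit (712), Sohlh2 (495), Nanos3 (298), Dmrtb1 (242), Esrp1 (199.95) and Dmrtc2 (79.96), so that Dmrtb1 stood well below Sohlh2 and below Nanos3 by slightly less than the sum of their SDs (18.3 and 39.9 per kilobase).

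With the deposited scaling most other genes listed for differentiating spermatogonia were lower. That list also holds genes of meiotic entry, such as Stra8 and Meiosin, so its median is not one of differentiating spermatogonia alone. Of 25 genes 17 were lower, 2 were higher and 6 were not called, with a median log2 fold change of -0.69. Scaled to general germ cell genes 7 were lower and 7 higher. Over all tested genes that scaling gave 241 lower and 11344 higher. Stra8, the retinoic acid-induced gene needed for meiotic entry, was at 5906, 5487 and 4319 in Control and at 1737, 1695 and 1290.4 in cKO (log2 fold change -1.73, limma adjusted p = 7.83e-09). The surface protein gene Ly6k (-2.59), the protease gene Prss50 (-2.29) and the STRA8 partner gene Meiosin, listed as Gm4969 (-2.16), had the largest falls as log2 fold changes. Lhx8, a homeobox gene, was lower by a smaller amount (log2 fold change -0.64, limma adjusted p = 0.0157). The genes called higher were the retinoic acid receptor gene Rara (0.50, limma adjusted p = 0.000643) and the cyclin gene Ccnd2 (0.46, limma adjusted p = 0.00433), and under the Sertoli scaling 0 were higher.

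Lists of other germ cell stages gave these counts with the deposited scaling. Among 12 tested stem cell genes 6 were higher and 0 lower (median 0.58), and among 14 progenitor genes 1 was higher and 4 lower (median -0.29). Of 28 genes of meiotic prophase 27 were lower and 0 higher, with a median of -1.38. Under the Sertoli scaling the stem cell list had 0 members higher and 1 lower, and the progenitor list 0 higher and 9 lower. Scaled to general germ cell genes 6 progenitor genes were higher and 1 lower, and 8 were lower with library totals and 7 without Control replicate 3. The log2 fold changes of Dmrtb1 (-1.51) and Dmrtc2 (-1.41) were close to this meiotic median, those of Kit (-0.34), Sohlh1 (-0.35), Sohlh2 (-0.42) and Esrp1 (-0.27) lay near the medians of the progenitor list (-0.29) and the general germ cell list (-0.43), and these positions are a description with no test.

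**Figure D4:**
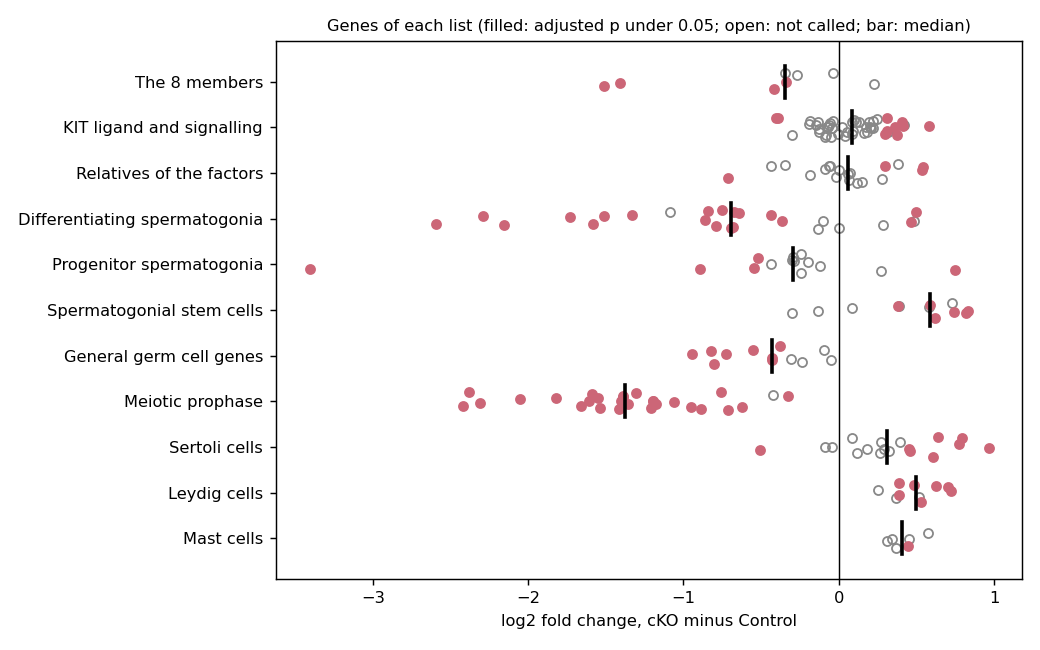
Log2 fold change of cKO against Control (horizontal axis) for every tested gene of 11 lists, filled red where the adjusted p was under 0.05, with the median of each list as a black bar. The medians run from -1.38 for meiotic prophase to 0.58 for stem cells, and the 8 members run from -1.51 for Dmrtb1 to 0.22 for Nanos3. All values are with the deposited scaling.

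Genes with the most similar pattern were sought among 12955 tested genes with a mean level of at least 100, by Euclidean distance over the 6 libraries of log2 levels less the Control mean. Nearest to Kit were Coq6 (distance 0.0538) and Mettl6 (0.0679), with log2 fold changes of -0.34 and -0.37. Nearest to Sohlh1 were Lsm4 (0.151), Crocc (0.16) and Nfkbie (0.174), and nearest to Dmrt1 were Wibg (0.0466), Blmh (0.0564) and Spata13 (0.06). For Esrp1 they were Thoc1 (0.0519), Eif4enif1 (0.0643) and Mknk1 (0.0658). With 6 libraries in 2 groups, likeness of this kind rests on both the group difference and the variation between libraries of a group.

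cKO replicate 3 was the lowest of the 3 cKO libraries for Kit, Sohlh1, Sohlh2, Dmrt1, Dmrtb1 and Nanos3, though not for Dmrtc2 or Esrp1. It also had the lowest summed level of general germ cell genes (26327, against 27097 and 27988 in cKO replicates 1 and 2). Its summed level of meiotic prophase genes was instead the highest (19731, against 16863 and 18645 in cKO replicates 1 and 2). Without cKO replicate 3, 2 of the 8 genes were called lower, Dmrtb1 and Dmrtc2, and without Control replicate 3 the number was 6.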

How the data were processed

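The authors deposited 1 table with 22219 gene symbols and 6 library columns, all used. Despite a name that speaks of raw counts, the deposited numbers are a scaled signal. Dividing each column by its smallest value gave whole numbers for 100% of entries (tolerance 1e-06), and the inverses of these smallest values matched recomputed median-of-ratios size factors (0.825 to 1.35). StringTie 1.3.1 and RSEM are named, without roles, per the submitters' processing notes. Which aligner, build and strand option were used is not given in the sources used here. Of recovered read counts from 1 to 20, 75.1% to 80.9% per library were even, so low counts are not independent single reads.

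Groups came from sample titles. limma 3.58.1 (R 4.3.3, trend prior, 2-sided) was run on log2(value + 2) for cKO minus Control over 17570 genes passing edgeR's filterByExpr (minimum count 10), which removed 4649. Fold changes on this scale understate changes of low genes. Adjustment was Benjamini-Hochberg over all tested genes, with calls under 0.05. edgeR 4.0.16 and DESeq2 1.42.0 on recovered reads, other scalings, pseudocounts, no filter, a replicate block and leaving out each library were alternatives. On these reads edgeR called 1857 genes lower and 1575 higher. The limma step was tested on simulated data. Libraries were not duplicates (chi-square per degree of freedom 10.23 or more). Ratios within a library used exact permutation tests. The members, gene lists and the naming rule were chosen with earlier results of these data known. The rule names all 8 genes, their paired genes, Eif5 and Stra8, 3 nearest genes for 4 members, up to 4 called genes per direction of a list, and the most abundant marker of other cell types; further genes named (Ddx4, Hsd3b1, Cpa3, Krt8, Krt18, Lhx8, Id1, Id4, other DMRT genes and the E proteins) were added after their values were seen. Of the lists, 6 genes were matched by RefSeq GRCm38.p6 synonyms. Genes of macrophages (6 of 8 higher), endothelium (1 of 8 higher, 1 lower) and peritubular myoid cells (2 of 6 lower) were also checked, and these counts were not stable. Macrophage genes higher numbered 0 with library totals, the Sertoli scaling or without cKO replicate 1 or 2, 1 without Control replicate 1 or 2 and 3 with the replicate block. Over the alternatives endothelial genes ranged from 0 to 6 higher and 0 to 2 lower, and myoid genes from 0 to 5 lower, with 0 without cKO replicate 1 or 2. Some genes that the rule would name are not reported here.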

Additional observations from a re-analysis of the deposited data

How the results depend on the processing

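Dmrtb1 (-1.92 to -0.91) and Dmrtc2 (-1.81 to -0.80) kept direction and call under all 16 alternatives. Scaling to a cell-type list changed many results. It also moved the median over all tested genes, from 0.01 on the log2 scale to -0.40 for the Sertoli list and to 0.61 for the general germ cell list. Other alternatives changed calls or signs too, as given below. Under the Sertoli scaling 7 members were lower, with Sohlh1 (-0.75), Dmrt1 (-0.45) and Esrp1 (-0.68) called, Nanos3 was -0.18, Nanos2 -0.28, KIT pathway calls were 9 lower and 0 higher, calls among relatives of the factors 4 lower and 0 higher, differentiating genes 0 higher, and all genes 4582 lower and 28 higher. Under the germ cell scaling 2 members were lower and 3 higher: Kit was 0.27, Sohlh1 0.26, Sohlh2 0.19, Dmrt1 0.57 (called), Esrp1 0.34 (called), Nanos3 0.83 (called), Eif5 0.29 and Esrp2 0.59. The calls there were 0 lower and 44 higher for the KIT pathway, 0 and 13 for the relatives, 7 and 7 for differentiating genes, and 241 and 11344 for all genes.

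With library totals Sohlh1 (-0.43) and Esrp1 (-0.36) were called, 4 KIT pathway genes were higher and 806 of all genes were higher against 1692. DESeq2 called Esrp1 (-0.28). The replicate numbers did not pair the libraries: same-numbered deviations correlated at -0.038, -0.0023 and 0.055. With the replicate block Sohlh1 was called (-0.35, adjusted p = 0.0286) and 2 relatives were lower. Esrp2, near 0, turned sign with a pseudocount of 8 (0.0051), by edgeR (0.060) and by DESeq2 (0.061); the causes were not tested.

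Leaving out 1 library at a time gave 2 to 6 members lower and 0 higher in each, Kit -0.41 to -0.30, Sohlh1 -0.45 to -0.19, Sohlh2 -0.52 to -0.26, Dmrt1 -0.11 to 0.022, Esrp1 -0.32 to -0.20, Nanos2 -0.23 to 0.50 and Esrp2 -0.26 to 0.29. It gave 4 to 9 KIT pathway genes higher, 1 to 2 relatives lower, and 916 to 1764 of all genes higher. The log2 ratio differences of Sohlh1 to Sohlh2 (-0.080 to 0.24), Nanos3 to Nanos2 (-0.33 to 0.57) and Esrp1 to Esrp2 (-0.56 to 0.014) turned sign, and the others did not. Depth limits Nanos2 and Esrp2, with 28 to 80 reads per library.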
